A study of Mus musculus with 2 samples.

Results

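The genes described here are 33 genes of cholesterol and fatty acid synthesis that are driven by the SREBP transcription factors, or that control those factors. They were chosen by name, with earlier results of these data known but without a rule on their values, and looked up by identifier among the 30774 gene identifiers of an Illumina mouse beadchip, where 30 of the 33 were found. Hmgcs1, Fdft1 and Acaca were not found by identifier and have no signal here, and Hmgcs1 and Acaca enter only the promoter search. Each of 2 arrays held biotin-labelled total RNA of mouse embryonic stem cells (mESCs), and the conditions had 1 array each. The labels describe both groups as B6 (C57BL/6) mESCs of the inner cell mass of embryonic day 3.5 embryos, cultured in serum medium. The LIF group received LIF, the cytokine that activates Stat3, and the LIF plus CHIR group received LIF together with CHIR99021, an inhibitor of the kinase GSK3, for 12 h. The labels give neither the concentration of CHIR99021 nor the number of cultures, and no allele or transgene. With 1 array per condition, the spread between cultures was not measured, and no difference below has a test or an error. In bulk RNA, a difference in the make-up of the culture and a difference in RNA per cell cannot be told apart.

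Sterol regulatory element-binding proteins (SREBPs) are made as membrane proteins of the endoplasmic reticulum. When sterols are scarce, Scap escorts them to the Golgi, where proteases release the active factor, and when sterols are plentiful the Insig proteins hold Scap back. The active factor enters the nucleus and raises transcription of nearly the whole route from acetyl-CoA to cholesterol, and of the enzymes that make and desaturate fatty acids. Nuclear SREBP is short-lived, since phosphorylation by GSK3 marks it for the ubiquitin ligase adaptor Fbxw7. The arrays therefore allow the question whether the RNA of SREBP targets was higher when GSK3 was inhibited.

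SREBPs work with NF-Y, which binds CCAAT boxes, and bind both sterol regulatory elements and E-boxes. The 250 bases before the start of transcription are shown for 4 members that frame the results: Ebp and Fads2, which had the largest rise and the largest fall of signal among the detected members, and Cyp51 and Insig1, commonly used readouts of SREBP activity. They are taken from RefSeq on build GRCm38.p6, read 5′ to 3′ on the strand of the gene, and capitals mark CCAAT or its reverse complement ATTGG, and CACGTG.
Ebp, chrX:8193513-8193762, minus strand: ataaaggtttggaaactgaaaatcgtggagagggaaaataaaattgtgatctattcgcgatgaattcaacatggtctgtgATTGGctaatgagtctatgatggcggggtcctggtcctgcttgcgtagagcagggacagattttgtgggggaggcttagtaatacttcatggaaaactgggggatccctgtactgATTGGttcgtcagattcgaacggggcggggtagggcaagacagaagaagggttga
Fads2, chr19:10101504-10101753, minus strand: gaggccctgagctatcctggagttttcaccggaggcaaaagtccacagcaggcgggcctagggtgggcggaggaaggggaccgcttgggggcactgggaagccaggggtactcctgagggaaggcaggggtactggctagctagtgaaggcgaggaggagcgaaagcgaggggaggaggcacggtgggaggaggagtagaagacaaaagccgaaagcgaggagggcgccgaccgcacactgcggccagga
Cyp51, chr5:4104698-4104947, minus strand: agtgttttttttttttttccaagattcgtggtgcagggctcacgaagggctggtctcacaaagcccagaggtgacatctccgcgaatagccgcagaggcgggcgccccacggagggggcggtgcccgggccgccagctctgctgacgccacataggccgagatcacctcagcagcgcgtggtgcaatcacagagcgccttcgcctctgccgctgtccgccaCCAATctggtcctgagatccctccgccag
Insig1, chr5:28071162-28071411, plus strand: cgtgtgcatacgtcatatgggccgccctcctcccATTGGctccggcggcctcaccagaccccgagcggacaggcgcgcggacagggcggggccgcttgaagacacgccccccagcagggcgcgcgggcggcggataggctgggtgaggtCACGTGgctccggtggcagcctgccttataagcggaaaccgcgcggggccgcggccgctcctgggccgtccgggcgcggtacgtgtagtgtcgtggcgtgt

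Of the 33 genes, 26 had at least 1 promoter in the RefSeq table, Sc4mol under its current symbol Msmo1. Fdps, Fdft1, Sqle, Scd1, Scd2, Fads1 and Stard4 had none there. CCAAT, searched on both strands, lay within the 250 bases in 19 of the 26 members (73.1%), against 40.9% of 4823 genes with both a detected identifier and a promoter, and 33.8% of all 32851 promoters. Ebp held the box at 170 and at 55 bases before the start, Cyp51 at 29 and Insig1 at 216, and the Fads2 window held none. The E-box CACGTG was found in 5 members (Hsd17b7, Sc5d, Dhcr7, Scap and Insig1; 19.2%), against 10.3% of the genes with a detected identifier and 6.02% of all promoters. A sterol regulatory element written as TCACNCCAC was found in Hmgcs1 alone (3.85% of members, 1.26% of the detected genes, 1.05% of all promoters). Hmgcs1 was not found on the array, and none of the 16 measured members with a promoter held this element. A gene with several promoters was counted if any of them held the letters, whereas the shares of all promoters count each promoter singly. None of the matches overlapped another in the sequences shown. Matches are letters in a window and not shown binding sites. Other spellings of the elements were not searched, so that a window without a match is not shown to lack them. On the arrays, the median log2 fold change (LIF plus CHIR over LIF, described below) was -0.03 for the 12 measured members with the box and 0.04 for the 4 without it.

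The response to CHIR and the identity of the cells were checked first. Axin2, a feedback target of Wnt/β-catenin signaling, had a signal of 314.1 in LIF and 1178 in LIF plus CHIR, which is 3.75-fold higher. Of 8 mESC markers, 7 were found and 5 were detected, Pou5f1 at 12346 in LIF and 11309 in LIF plus CHIR, Zfp42 at 1886 and 1993, Nanog at 1660 and 2429, Esrrb at 10986 and 14053, and Fgf4 at 712.7 and 430.1. Of these, Fgf4 was past the limit of 1.5-fold used below, 1.66-fold lower, and Nanog was 1.46-fold higher. Sox2 (441.2 and 400.2) had a combined detection p-value above the limit, and Tdgf1 (26.6 and 14.6) was not above background. None of 6 fibroblast markers was detected, with collagen signals of at most 24.7 and Thy1 at 222.3 and 225.3 (combined p-values 0.35 and 0.30), and 1 of 5 primitive endoderm markers was, Sox7 at 45.9 and 59.0.

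The RNA of the SREBP targets was close to equal on both arrays. A member entered the comparison when its detection p-value, which compares its signal with negative control beads, was under 0.01 on at least 1 array, and 22 of the 30 did. Of these, 0 rose by 1.5-fold or more with CHIR and 0 fell by as much. Over all 9615 detected identifiers these shares were 4.11% and 4.02%, so that among 22 genes a count of 0 does not set the members apart. By any amount 9 members were higher and 13 were lower, that is 40.9% higher against 50.2% of all identifiers. The median log2 fold change (LIF plus CHIR over LIF) was -0.03 for the members and 0.00 for all identifiers. The members ranged from -0.37 for Fads2 to 0.56 for Ebp.

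**Figure D1:**
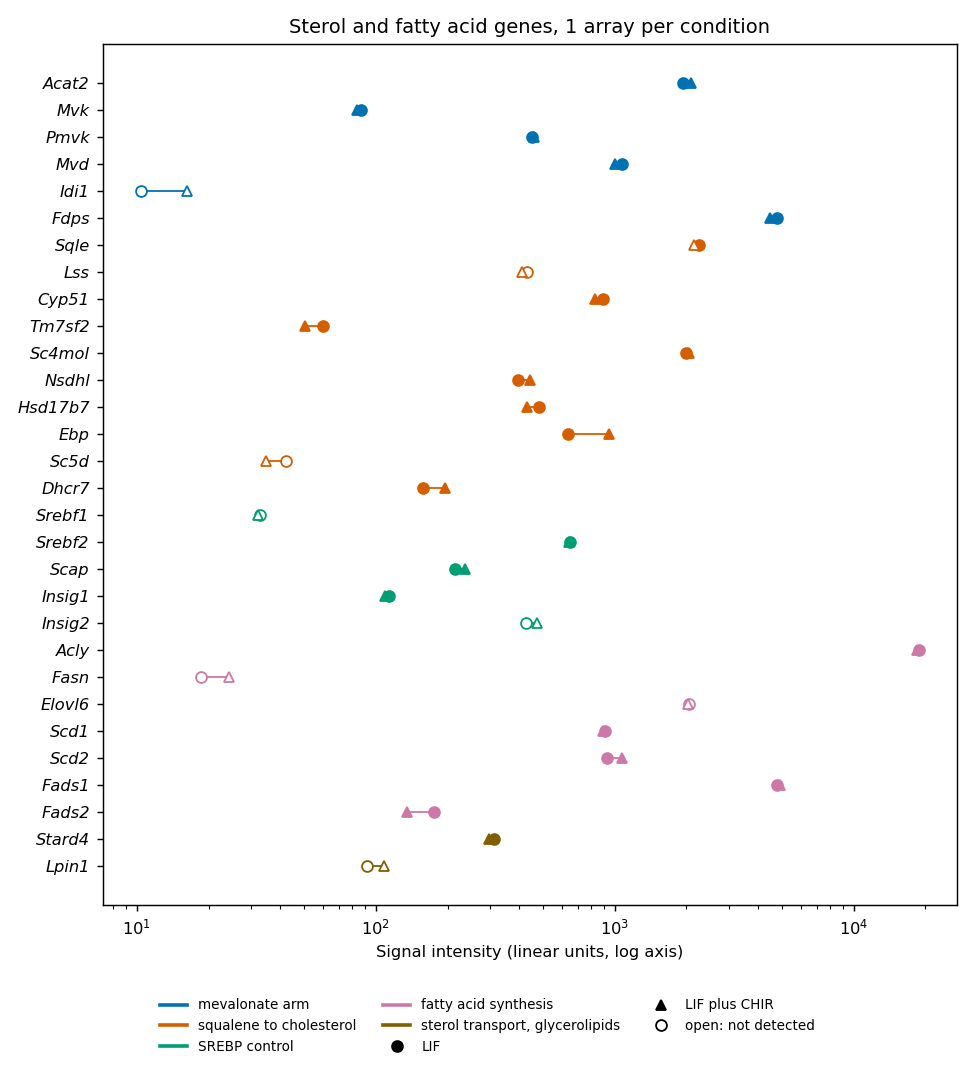
Signal intensity of the 30 members found on the array, in linear units on a log axis, with a circle for LIF, a triangle for LIF plus CHIR and colours for the roles. Filled marks are detected at a p-value under 0.01 and open marks are not. For most genes the marks overlap, and the widest gap among detected genes is that of Ebp (639.4 and 943.6). Levels of different genes come from different probes and are not comparable.

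Dim signals vary more between arrays than bright ones, so the size of the differences was also set beside that of identifiers of like brightness. The signals of 14 of the 22 members (63.6%) lay within 1.1-fold of each other, against 47.7% of all identifiers. Among the 8 members whose brighter signal was 1000 or more, 7 lay within 1.1-fold, where 63.3% of 3269 identifiers did. Among the 12 members between 100 and 1000, 6 did, where 45.1% of 4521 identifiers did. The remaining 2 members were under 100, Mvk within 1.1-fold and Tm7sf2 not, where 26.2% of 1825 identifiers lay within it. The median size of the log2 fold change, without its sign, was 0.09 for the members and 0.15 for all identifiers. Only Ebp lay above the 90th percentile of all identifiers (0.35), and only Fads2 lay below the 10th (-0.34).

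**Figure D2:**
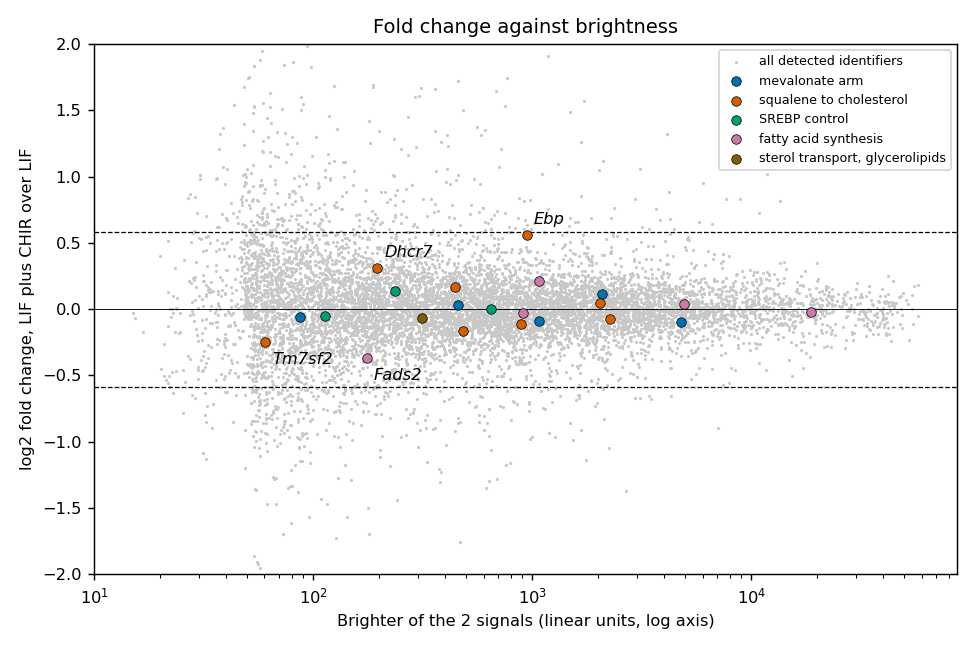
Log2 fold change (LIF plus CHIR over LIF) against the brighter of both signals, in linear units on a log axis. Grey points are all 9615 detected identifiers, of which 32 lie outside the plotted range, coloured points are the 22 detected members by role, and dashed lines mark 1.5-fold. All 22 members lie between the dashed lines, with Ebp (0.56) nearest to one.

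The mevalonate arm turns acetyl-CoA into the building block farnesyl diphosphate. None of its 5 detected members differed by as much as 1.1-fold, and their median log2 fold change was -0.06, with 2 higher and 3 lower. Acat2, which joins acetyl-CoA units at the entry of the route, had a signal of 1932 in LIF and 2091 in LIF plus CHIR (log2 fold change 0.11). The mevalonate kinase Mvk had 86.9 and 83.4 (-0.06), and the next kinase, Pmvk, had 452.1 and 460.8 (0.03). Mvd, which makes isopentenyl diphosphate, had 1071 and 1008 (-0.09). Fdps, the synthase of farnesyl diphosphate, had 4807 and 4486 (-0.10). Idi1, which isomerises isopentenyl diphosphate, was not above background on either array, with 10.5 (detection p-value 0.19) and 16.3 (0.15), so that no fold change is given.

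The steps from squalene to cholesterol held the members with the larger rises. Of 8 detected members, 4 were higher and 4 were lower, with a median log2 fold change of -0.02. Ebp (Entrez gene 13595, chromosome X, band XqA1.1), the isomerase that moves a double bond within the sterol rings, had a signal of 639.4 in LIF and 943.6 in LIF plus CHIR. This was 1.48-fold higher (log2 fold change 0.56), just under the limit of 1.5-fold. A difference of at least that size, in either direction, was seen in 8.07% of the identifiers of the same brightness, between 100 and 1000. Dhcr7 (Entrez gene 13360, chromosome 7, band 7qF5), the reductase of the last step of the route, had 157.9 and 195.8, or 1.24-fold higher (0.31), and 23.0% of the identifiers of its brightness differed by as much. These were the 2 members past 1.2-fold upward, a limit that 14.0% of all identifiers passed.

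The other sterol enzymes lay closer to equal. Sqle, the epoxidase of squalene and a rate-limiting step, had 2266 in LIF and 2147 in LIF plus CHIR (log2 fold change -0.08). It was measured by several probes and was detected in LIF only by the combined p-value (0.0073 against 0.048). Cyp51, the demethylase of lanosterol, had 893.0 and 824.8 (-0.11). Sc4mol, which starts the removal of a pair of methyl groups, had 1986 and 2047 (0.04). Its partners in that removal moved in opposite directions by small amounts, Nsdhl with 393.9 and 443.2 (0.17) and Hsd17b7 with 482.3 and 430.8 (-0.16). Tm7sf2, a sterol reductase, was dim with 60.1 and 50.5 (-0.25), and 55.4% of identifiers under 100 differed by as much in either direction. Sc5d, a desaturase near the end of the route, had 42.4 and 34.8 and was not detected (0.022 and 0.043). Lss, the cyclase that makes lanosterol, had signals of 431.8 and 409.1, a log2 ratio of -0.08, with combined detection p-values of 0.33 and 0.23.

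Of the genes that control SREBP itself, 3 were detected, 1 higher and 2 lower, with a median log2 fold change of 0.00. Srebf2, which encodes the SREBP that mainly drives cholesterol synthesis and is a target of itself, had 648.7 in LIF and 647.7 in LIF plus CHIR (log2 fold change 0.00). Scap, the escort to the Golgi, had 214.6 and 236.3 (0.14). Insig1, the retention factor and itself a sensitive SREBP target, had 113.6 and 109.3 (-0.06). Srebf1, whose products favour fatty acid genes, was not detected, with 33.0 (detection p-value 0.30) and 32.1 (0.42). Insig2 had 426.6 and 473.4, a log2 ratio of 0.15, but combined p-values of 0.12 and 0.14. These are RNA signals, and the amount of nuclear SREBP protein was not measured.

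Among the genes of fatty acid synthesis, 5 were detected, 2 higher and 3 lower, with a median log2 fold change of -0.03. Acly, which supplies cytosolic acetyl-CoA, had 18717 in LIF and 18388 in LIF plus CHIR (-0.03). The desaturase Scd1 had 912.8 and 894.8 (-0.03), and its neighbour Scd2 had 927.3 and 1071 (0.21), a difference that 18.8% of identifiers at 1000 or more equalled or exceeded in either direction. Fads1, a desaturase of polyunsaturated fatty acids, had 4787 and 4919 (0.04). Fads2, the desaturase that acts before Fads1 in that route, had 175.6 and 135.6, or 1.29-fold lower (-0.37). It was the largest fall of any detected member and the only one past 1.2-fold downward, where 13.9% of all identifiers lay, and 17.1% of the identifiers of its brightness differed by as much in either direction. Fasn, the fatty acid synthase, was not above background, with 18.6 (detection p-value 0.12) and 24.3 (0.084). Elovl6, which elongates palmitate, had 2055 and 2031, a log2 ratio of -0.02, with combined p-values of 0.28 and 0.49.

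Of the members outside these routes, Stard4, a carrier of cholesterol between membranes, had 313.4 in LIF and 298.4 in LIF plus CHIR (log2 fold change -0.07). Lpin1, a phosphatidate phosphatase of triglyceride synthesis, had 92.4 and 108.4, a log2 ratio of 0.23, and missed detection at 0.076 and 0.019. In all, 8 members did not pass the detection limit. Idi1, Sc5d and Fasn were measured by 1 probe and Srebf1 by several, and their signals were dim on both arrays. The other 4 (Lss, Insig2, Elovl6 and Lpin1) had several probes and signals above the dimmest detected ones among single-probe identifiers (51.9 in LIF and 47.1 in LIF plus CHIR). Bright identifiers with a combined p-value often missed the limit: with a signal over 400 on both arrays, 530 of 1164 identifiers with several probes were detected on neither array, against 0 of 4158 with 1 probe. With detection judged by signal, an alternative chosen after seeing the data, 26 members entered, 11 higher and 15 lower, with a median log2 fold change of -0.02 and again 0 past 1.5-fold in either direction, where 2.55% of 10803 identifiers were higher and 2.88% were lower.

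The other genes of lipid metabolism were compared in the same way, from 5 lists of 73 genes in all. Of these, 69 were found and 40 were detected, and 23 of the 40 were higher and 17 were lower, with a median log2 fold change of 0.03. Over all detected identifiers, 50.2% were higher and the median was 0.00. None of the 40 rose by 1.5-fold or more, where 4.11% of all identifiers did, and 3 fell by as much, where 4.02% did. Of these 3, Abcg1 was counted against the lower of the minimum signals given below.

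By list, 5 of 10 detected genes of sterol synthesis and uptake were higher, with a median log2 fold change of 0.01. Of 15 detected genes of fatty acid and glycerolipid synthesis 10 were higher, with a median of 0.11. Of 4 detected genes of SREBP processing and turnover 3 were higher, with a median of 0.03. Among them Gsk3b, an isoform of the kinase that CHIR inhibits, had 457.0 and 461.2 (0.01). Fbxw7, measured by several probes, had 439.8 and 454.8 (0.05) and was detected in LIF only (combined detection p-values 0.0039 and 0.015). Of 5 detected genes of fatty acid oxidation 2 were higher, with a median of 0.00. Of 6 detected genes of sterol efflux, esterification and the LXR receptors 3 were higher, with a median of 0.04. The direction of that median depended on the processing, at 0.21 when both arrays had to detect a gene and at -0.13 with the higher minimum from identifiers with 1 probe.

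The 3 genes past 1.5-fold downward were Soat2, Hadhb and Abcg1. Soat2, which esterifies cholesterol, had 245.3 in LIF and 157.6 in LIF plus CHIR, or 1.56-fold lower (log2 fold change -0.64). Hadhb, a subunit of the trifunctional protein of fatty acid oxidation, had 89.6 and 50.6, or 1.77-fold lower (-0.82), at a brightness where 10.3% of identifiers fell by 1.5-fold or more. Abcg1, a sterol exporter, had 53.8 and 10.7 and was detected in LIF only. It was 3.64-fold lower against the lowest detected signal of the LIF plus CHIR array (14.8), which came from an identifier with several probes. Abcg1 itself was measured by 1 probe. Against the lowest detected signal among identifiers with 1 probe (47.1) it was at least 1.14-fold lower. Only this smaller bound holds for Abcg1, and its place past the limit depends on the minimum chosen.

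**Figure D3:**
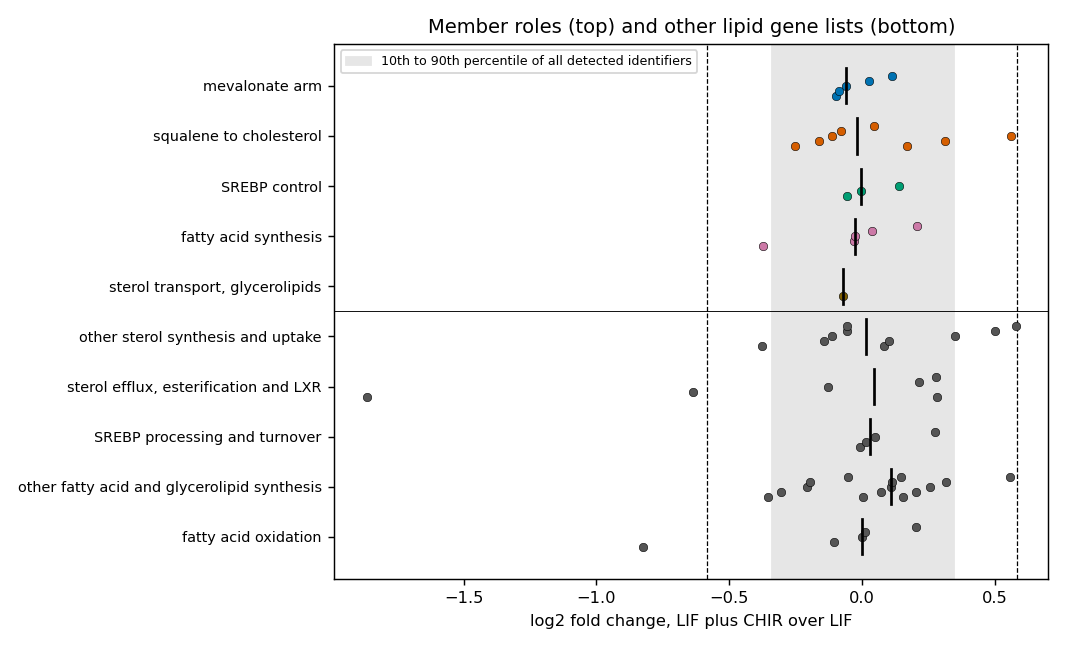
Log2 fold change (LIF plus CHIR over LIF) of each detected gene, for the roles of the members (top, coloured) and the other lipid gene lists (bottom, grey). Black bars are medians, dashed lines mark 1.5-fold, and the shaded band is the range from the 10th to the 90th percentile of all detected identifiers (-0.34 to 0.35). The medians of all lists lie between -0.07 and 0.11, and the leftmost point is Abcg1, drawn against the lower minimum.

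Under quantile normalization the members ranged from -0.37 to 0.56, as with the deposited signals. A normexp background correction followed by quantile normalization gave -0.34 to 0.55 when fitted on identifiers with 1 probe. Fitted on all identifiers, it gave -0.13 to 0.34. The fit on all identifiers took a far wider background on the LIF array, with a standard deviation of 588 against 15.7 with 1 probe. The other rules on detection and minimum signal, and the shorter table, leave the value of a member as it is when it enters. Under the 4 alternatives that change the values (quantile normalization, scaling to equal medians and both normexp fits), the 22 members kept their sign and none reached 1.5-fold. All of them rescale the same 2 arrays, so that a kept sign does not show that a difference would recur in another culture. Some kept signs belong to values near 0, such as Srebf2 at -2.2e-05 with scaling to equal medians. Ebp ranged from 0.34 to 0.56. Dhcr7 ranged from 0.03 to 0.31 and Fads2 from -0.37 to -0.04. For both, the end nearest 0 came from normexp fitted on all identifiers. Fitted on identifiers with 1 probe, Dhcr7 was at 0.29 and Fads2 at -0.34.

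**Figure D4:**
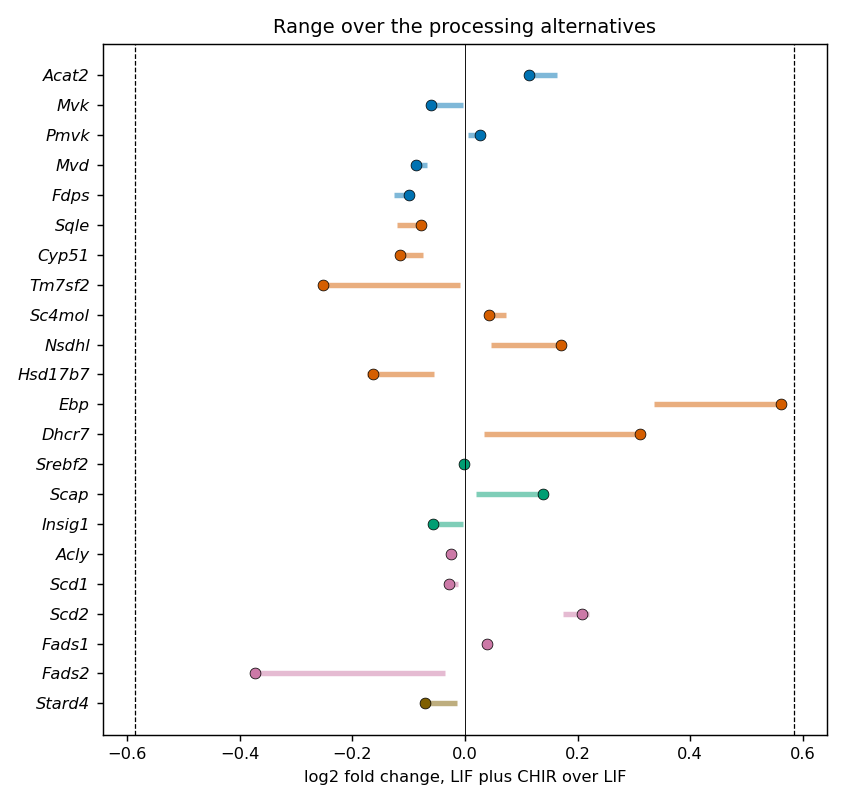
Log2 fold change (LIF plus CHIR over LIF) of the 22 detected members. Points are the deposited signals, bars span the values under the alternatives and dashed lines mark 1.5-fold. No bar crosses 0 or reaches 1.5-fold. The bars of several members run almost to 0, among them Dhcr7, Fads2, Tm7sf2, Mvk and Insig1.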

How the data were processed

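Each condition, LIF or LIF plus CHIR, had total RNA on 1 Illumina mouse beadchip. The deposited values are signal intensity, linear, 1 per identifier and array, already background-subtracted. Whether they were normalized is not known, and software and method are not given in the sources used here. The medians over all identifiers were nearly equal (10.5 and 10.4). They lay below the dimmest detected signals, so that they say little about the normalization of detected genes. Each deposited signal comes with a detection p-value. The longer of both tables, labelled as not normalized, was used. The shorter table is labelled as normalized, yet 0 of the values of the 11702 identifiers shared by both differed. The p-values of 23344 identifiers were multiples of 1 over 936 within a tolerance of 0.001, and these were taken as measured by 1 probe. For 9 of the 30 members, the array annotation gives no Entrez number, so that the gene is known by its symbol only.

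Log2 fold changes of the deposited signals were taken in Python 3.11.15 (numpy 2.4.6, pandas 2.3.3; figures with matplotlib 3.10.9), where at least 1 array detected the identifier (p under 0.01). Signals under an array's dimmest detected one (15.1 in LIF, 14.8 in LIF plus CHIR) were raised to it. Differences have no p-value, as no condition has a second array, and their precision is limited by how few arrays there are. The calculation was run on simulated data made from the LIF array, with less spread than that between the real arrays. This checks the code and not how reliable the differences are. Alternatives are named in the closing section. Normexp correction (offset 16) used limma 3.58.1 in R 4.3.3, and quantile normalization followed it. Promoters were matched by symbol to RefSeq, build GRCm38.p6, and motifs were searched in the 250 bases before the start. The members and lists were chosen with earlier results of these data known. The rule for named genes was every member, Axin2 and each other pathway gene past 1.5-fold, and some genes it names are not reported here; Gsk3b and Fbxw7 were named after their values were seen.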

Additional observations from a re-analysis of the deposited data

How the results depend on the processing

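No paired analysis was possible because the groups share a single replicate number. The alternatives were normexp correction fitted on identifiers with 1 probe or on all identifiers, quantile normalization, scaling to equal medians, detection at 0.05, detection by both arrays, signals without a minimum, a minimum from identifiers with 1 probe, the shorter table, and limits of 1.2-fold and 2-fold. Detection by signal, and every identifier above 0 on both arrays, were added after seeing the data. The members past the limit numbered 0 in each direction, except 2 higher and 1 lower at 1.2-fold, and 1 higher (Idi1, which neither array detected, so that its ratio has no meaning) when every identifier above 0 was used. Over all identifiers, 395 were higher and 387 lower at 1.5-fold. The counts were 55 and 49 with normexp fitted on all identifiers, 274 and 257 fitted on those with 1 probe, 682 and 684 with detection at 0.05, 203 and 227 when both arrays had to detect it, and 247 and 273 with the higher minimum. They were 1347 and 1334 at 1.2-fold, and 129 and 85 at 2-fold. With detection by signal they were 275 and 311, and 2046 and 2091 with every identifier above 0. The number of identifiers entering differed between the rules on detection. It was 8580 when both arrays had to detect an identifier, of which 2.37% were higher and 2.65% lower. With every identifier above 0 it was 17567, of which 11.6% were higher and 11.9% lower. Fitted on all identifiers, normexp moved Soat2 to -0.08, Hadhb to -0.03, Abcg1 to -0.04 and Axin2 to 0.94. Fitted on those with 1 probe, it gave -0.59 for Soat2, -0.66 for Hadhb and 1.86 for Axin2. Abcg1 was at -1.07 with the fit on 1 probe and at -0.19 with the higher minimum or detection by signal. Calls were more frequent among dim signals: under 100, 10.4% of identifiers were at least 1.5-fold higher, against 1.19% at 1000 or more. The median of the sterol efflux, esterification and LXR list was 0.04 and ranged from -0.13 to 0.21 over the alternatives.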

Other observations

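The array holds an identifier annotated as similar to Hmgcs1, LOC100040592, chosen after its values were seen. It was among the bright identifiers, with a signal of 23671 in LIF and 23394 in LIF plus CHIR (log2 ratio -0.02). Whether its probe reports Hmgcs1, the synthase of the mevalonate arm, was not tested, and it was not counted among the members.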
